A study of Saccharomyces cerevisiae and Saccharomyces cerevisiae x Saccharomyces paradoxus and Saccharomyces cerevisiae x Saccharomyces mikatae with 18 samples.

Results

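The genes described here are those by which budding yeasts recognise and fuse with a mating partner: STE2, MFA1, MFA2 and BAR1 of a cells, STE3 and MF(ALPHA)1 of alpha cells, STE4, GPA1 and HO of haploids of either type, and FUS1, which pheromone induces. They were chosen by name and systematic identifier. Of these 10 genes, 6 were among the 4730 genes with values: STE2 (YFL026W), MFA1 (YDR461W), MFA2 (YNL145W), STE3 (YKL178C), STE4 (YOR212W) and GPA1 (YHR005C). Expression of BAR1, MF(ALPHA)1, HO and FUS1 was not analysed here.

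The study sequenced the 3′ ends of polyadenylated transcripts from diploid Saccharomyces and from hybrids between species, in 18 libraries. There were 6 libraries of S. cerevisiae homozygotes (YHL068) and 2 each of S. paradoxus (CBS 432), S. mikatae (IFO 1815) and S. bayanus (CBS 7001). A further 2 libraries came from each of the hybrids of S. cerevisiae BY4716 with S. paradoxus (YYM014, parents BY4716 x OZY361), with S. mikatae (YYM030, parents BY4716 x JRY9175) and with S. bayanus (YYM015, parents BY4716 x JRY9191). Growth was in YPD, a rich glucose medium, at 25 °C, to log phase at an optical density (600 nm) of 0.65 to 0.75, and the labels name no pheromone. The study lists every strain as a MATa/MATalpha diploid. YHL068 and the 3 hybrids carry a lys2 deletion on a single copy, and YHL068 and the hybrids are also heterozygous for other auxotrophic markers (ade2, his3, leu2, met15 or ura3, according to the strain). Each hybrid was a single strain, so the 2 libraries of a group are cultures of 1 genotype. No haploid library was labelled, so low expression in a diploid could be described but not compared with the expressed state.

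A hybrid library gave separate values for its S. cerevisiae allele and its partner allele, so the 18 libraries made 24 columns of values. The column totals were 4760197 to 6883279 in the 12 homozygote columns and 2255430 to 3336994 in the 12 allele columns. Values were divided by each column's upper quartile and are called scaled values below. A deposited value of 1, the smallest above 0, was worth 0.584 to 0.801 scaled units in a homozygote and 1.13 to 1.72 in an allele column. A transcript gives 1 end whatever its length, so genes can be ranked within a column without division by length. Only reads that mapped uniquely in the 2 genomes of a pair were counted, and the number of such positions per gene was not measured here.

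In a haploid a cell, the pheromone receptor Ste2, the a-factor precursors Mfa1 and Mfa2 and the protease Bar1 are made because nothing represses them. In alpha cells the alpha2 protein, bound with Mcm1, shuts these genes off, while the activator alpha1 turns on STE3 and MF(ALPHA)1. A diploid with both mating types also forms the a1-alpha2 repressor, which silences alpha1 and the haploid-specific genes, among them GPA1, STE4 and HO. A MATa/MATalpha diploid is therefore known to express little of any of these genes in S. cerevisiae.

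The closest matches to the binding patterns of both repressors are shown because these repressors are what a diploid is known to use on such genes. The S. cerevisiae reference R64 was searched on both strands of the 600 bases before each of 6008 nuclear start codons. The alpha2-Mcm1 pattern was CATGTNNTTNCCNNNNNNGGNNNNNTACA, with N for any base and 15 fixed letters. In the sequences below, capitals mark letters that match the pattern.
STE2, chrVI:82353-82381, minus strand: CATGTacTTaCCcaattaGGaaattTACA
MFA2, chrXIV:352163-352191, plus strand: CATGTatTTaCCtattcgGGaaattTACA
MFA1, chrIV:1384942-1384970, plus strand: tgTGTaaTTaCCcaaaaaGGaaattTACA
All fixed letters matched in the windows of STE2, MFA2, STE6 and GYP8, which shares its window with STE2 on the other side of the intergenic region. These were 4 of 6008 windows, or 0.0666%. The windows of MFA1 and of the a-specific ASG7 held the pattern with 2 mismatches, which 0.183% of windows matched or bettered. The a-specific BAR1 and AGA2 had 4 mismatches, as did HO and FUS1, which are not a-specific. This was a match that 12.5% of windows matched or bettered. In BAR1 and AGA2 all 4 mismatches fell in the closing TACA, which both held a base earlier than the fixed spacing of the pattern. In HO and FUS1 the mismatches were spread along the pattern. The count of mismatches thus understates how closely BAR1 and AGA2 resemble the pattern. The best match of STE3, STE4 and GPA1, and of the a-specific AFB1, had 5 mismatches, which 60.9% of windows matched or bettered.

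The a1-alpha2 pattern was TGTNNNNANNTACATCA, with 11 fixed letters.
HO, chrIV:48436-48452, minus strand: TGTtattAttTACATCA
GPA1, chrVIII:115256-115272, minus strand: TGTtaaaAagcACATCA
HO matched every fixed letter, as did 10 windows in all, or 0.166%. GPA1 and STE3 had 1 mismatch, which 2.16% of windows matched or bettered. The haploid-specific STE4 and the a-specific MFA1 both had 2 mismatches, which 26.9% of windows matched or bettered. These matches describe letters in the S. cerevisiae reference and do not show binding. The genomes of the other species were not searched.

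All 6 genes lay below the median gene in every homozygote and every hybrid, and most values were low. Over the 144 values, the median percentile among the genes of the same column was 6.93, the lowest was 0.581 and the highest 49.0. Of the 144 values, 130 lay below the 25th percentile. The higher ones included MFA2 of S. mikatae, with a median percentile of 46.8 in the homozygotes and 39.4 and 36.5 for the allele. They also included GPA1 of S. paradoxus homozygotes, with a median percentile of 33.5. The genes were thus not equally low in all species. The value was 0 in 8 of 144. The median percentile was 8.77 for the a-specific STE2, MFA1 and MFA2, 3.01 for STE3, and 6.93 for the haploid-specific STE4 and GPA1. Because bulk RNA was sequenced, few cells with a high level and many cells with a low level cannot be told apart.

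**Figure D1:**
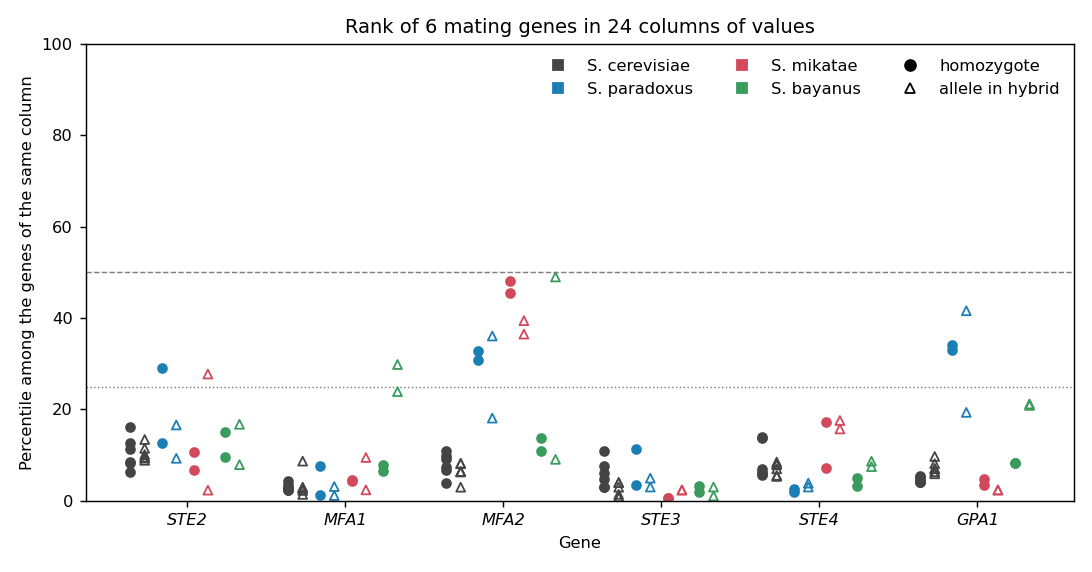
Percentile of each of the 6 genes (horizontal axis) among the genes of the same column (vertical axis, 0 to 100), with filled circles for homozygote libraries and open triangles for alleles in hybrids, coloured by species. The dotted and dashed lines mark percentiles 25 and 50, and the highest of the 144 points, MFA2 of S. bayanus in 1 hybrid library, lies at 49.0.

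The sum of the 6 scaled values gave each genome's output of these genes. In the homozygotes it was 62.5 to 162 in the 6 S. cerevisiae libraries, 227 and 326 in S. paradoxus, 204 and 207 in S. mikatae, and 71.2 and 115 in S. bayanus. The S. paradoxus and S. mikatae sums lay above every S. cerevisiae sum, while S. bayanus lay inside the S. cerevisiae range. MFA2 and GPA1 carried the higher sums. Without MFA2 the S. mikatae sums were 42.3 and 60.1, inside the S. cerevisiae range of 39.1 to 129. Without MFA2 and GPA1 the S. paradoxus sums were 36.6 and 125, against at most 117 in S. cerevisiae. In the hybrids the sum was 32.6 to 72.3 for the 6 S. cerevisiae alleles, 207 and 221 for S. paradoxus, 175 and 248 for S. mikatae, and 207 and 328 for S. bayanus. In the hybrids each partner thus gave a higher sum than any S. cerevisiae allele set. Without MFA2 and GPA1 the S. paradoxus sums (19.8 and 52.9) fell among those of the S. cerevisiae alleles (17.9 to 49.3) or just above, while those of S. mikatae (64.3 and 120.3) and S. bayanus (86.0 and 139) stayed higher.

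MFA2, a precursor gene of the a-factor pheromone, had the highest mean log2 level of the 6 genes over all 24 columns, but not in every group: STE2 exceeded it in all 6 S. cerevisiae alleles and GPA1 in both S. paradoxus homozygotes. In the S. cerevisiae homozygotes its scaled values were 34.1 and 33.7 in the pair with S. paradoxus, 5.98 and 14.3 in the pair with S. mikatae, and 26.7 and 16.7 in the pair with S. bayanus. It stood at 91.4 and 98.2 in S. paradoxus, 162 and 147 in S. mikatae, and 35.1 and 21.6 in S. bayanus. The first 2 of these species therefore lay above all 6 S. cerevisiae libraries, and S. bayanus overlapped them. In the hybrids the partner allele was higher than the S. cerevisiae allele in 6 of 6 libraries. The S. cerevisiae allele had 6.53 and 1.52 beside S. paradoxus, 8.61 and 11.5 beside S. mikatae, and 14.1 and 8.52 beside S. bayanus. The partner alleles in the same libraries had 44.6 and 116 for S. paradoxus, 126 and 109 for S. mikatae, and 189.7 and 15.0 for S. bayanus. The 2 S. bayanus alleles differed far more from each other than those of any other group for this gene. In order of the group means, MFA2 fell from 155 in S. mikatae homozygotes to 118 for the S. mikatae allele, 102 for the S. bayanus allele, 94.8 in S. paradoxus homozygotes and 80.3 for the S. paradoxus allele. The S. bayanus allele (SD 124, n = 2) and the S. paradoxus allele (SD 50.4, n = 2) did not differ from their neighbours in this order beyond their spread. Every S. cerevisiae group and the S. bayanus homozygotes had means of 33.9 or less.

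MFA1 encodes the same a-factor peptide family. It was near the floor in S. cerevisiae homozygotes, at 12.2 and 7.12 in the pair with S. paradoxus, 2.99 and 2.61 with S. mikatae, and 3.26 and 2.57 with S. bayanus. S. paradoxus had 0.795 and 13.6, S. mikatae 5.11 and 4.80, and S. bayanus 15.8 and 10.8. The S. bayanus allele of the hybrid stood at 62.8 and 87.0 and the S. cerevisiae allele at 2.56 and 1.42. No other MFA1 value among the 24 columns exceeded 19.5. Beside each other in 1 nucleus, MFA1 was 0 and 2.25 for the S. paradoxus allele and 0 and 1.52 for the S. cerevisiae allele. With S. mikatae it was 1.52 and 19.5 for the S. mikatae allele and 1.72 and 13.1 for the S. cerevisiae allele, and in this hybrid the second library was the higher for both alleles.

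STE2, the receptor for alpha-factor, varied as much between the 2 libraries of a group as between species. S. cerevisiae homozygotes had 28.3 and 43.4 in the pair with S. paradoxus, 45.4 and 20.2 with S. mikatae, and 13.0 and 34.0 with S. bayanus. The other homozygotes had 30.2 and 85.2 in S. paradoxus, 21.9 and 11.2 in S. mikatae, and 39.2 and 18.7 in S. bayanus. The S. cerevisiae alleles were 13.1 and 16.7, 18.9 and 21.3, and 17.9 and 28.4 in the hybrids with S. paradoxus, S. mikatae and S. bayanus. Their partner alleles were 16.5 and 41.6 for S. paradoxus, 77.6 and 1.50 for S. mikatae, and 12.3 and 37.5 for S. bayanus. The S. mikatae allele took both the highest and the lowest STE2 value of the 12 allele columns. No group of STE2 lay wholly outside the group it was compared with, except for the S. cerevisiae allele beside S. paradoxus, whose values were below those of the homozygote.

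STE3, the a-factor receptor of alpha cells, had the lowest median percentile over the 24 columns (3.01, beside 3.04 for MFA1), although MFA1 was below it in all 6 S. cerevisiae homozygotes. It was listed at 0 in 6 of 24 columns, among them both S. mikatae homozygotes. S. cerevisiae homozygotes had 20.6 and 13.6 in the pair with S. paradoxus, 28.7 and 3.91 with S. mikatae, and 3.91 and 17.3 with S. bayanus. S. paradoxus had 3.98 and 25.2 and S. bayanus 1.17 and 2.88. In the hybrids all 12 allele values were 5.63 or less. The alleles beside one another were 0 and 1.52 (S. cerevisiae) against 1.65 and 5.63 (S. paradoxus), 3.44 and 3.28 against 1.52 and 1.50 (S. mikatae), and 0 and 0 against 0 and 1.50 (S. bayanus). These are deposited values of 0 to 5 per allele, and differences of this size cannot be resolved at this depth.

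STE4 encodes the beta subunit of the G protein that the pheromone receptors activate. In the S. cerevisiae homozygotes it was 49.5 and 53.1 in the pair with S. paradoxus, against 12.6 and 11.1 with S. mikatae and 11.7 and 15.4 with S. bayanus. The 2 former libraries stood apart from the other 4 of the same strain, and the part of the mapping in this gap was not tested. STE4 was 1.59 and 1.36 in S. paradoxus, 11.7 and 38.4 in S. mikatae, and 7.01 and 2.88 in S. bayanus. In the hybrids the S. cerevisiae allele had 4.89 and 12.2, 10.3 and 11.5, and 7.69 and 14.2 beside S. paradoxus, S. mikatae and S. bayanus. The partner alleles had 1.65 and 3.38, 39.6 and 41.9, and 10.9 and 13.5. STE4 was thus lowest in S. paradoxus, in the homozygotes and in the hybrid, and highest among alleles in S. mikatae.

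GPA1 encodes the alpha subunit of the same G protein, which holds Ste4 inactive until pheromone binds. The S. cerevisiae homozygotes had 13.5 and 11.6 in the pair with S. paradoxus, 10.2 and 10.4 with S. mikatae, and 7.17 and 7.06 with S. bayanus. S. paradoxus had 99.4 and 102, S. mikatae 3.65 and 5.61, and S. bayanus 16.9 and 14.4. S. paradoxus and S. bayanus were above, and S. mikatae below, all 6 S. cerevisiae libraries. The S. cerevisiae allele had 8.16 and 7.61 beside S. paradoxus, 10.3 and 11.5 beside S. mikatae, and 8.97 and 17.0 beside S. bayanus. The partner alleles had 142 and 51.8 in S. paradoxus, 1.52 and 1.50 in S. mikatae, and 51.9 and 52.5 in S. bayanus. In the hybrids the order was that of the homozygotes, with the partner allele higher in 4 of 6 libraries and lower in the 2 with S. mikatae. The group means fell from 100.8 in S. paradoxus homozygotes to 97.0 for the S. paradoxus allele (SD 63.9, n = 2), which do not differ beyond their spread. The S. bayanus allele followed at 52.2, and its homozygotes at 15.7.

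**Figure D2:**
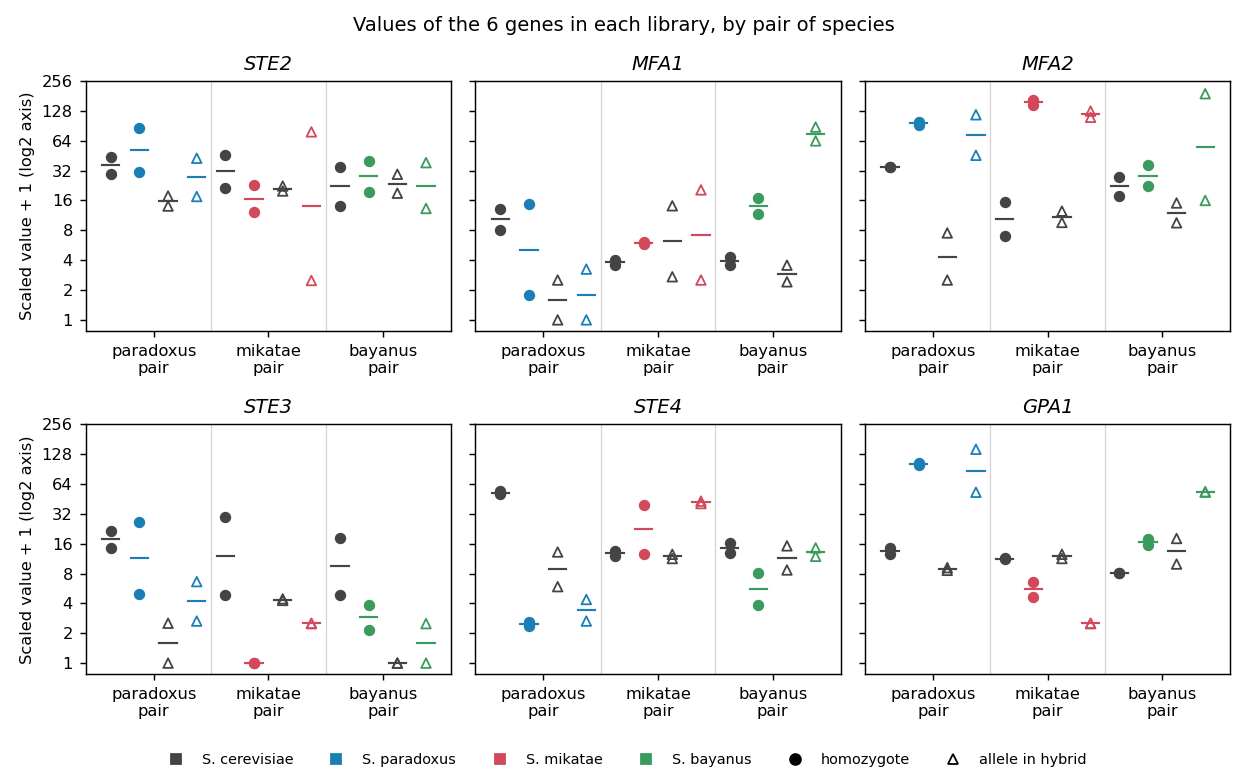
Scaled value plus 1 on a log2 axis for each gene and library, with the 3 pairs of species along the horizontal axis. Within a pair the order is S. cerevisiae and partner homozygotes (filled circles), then S. cerevisiae and partner alleles of the hybrid (open triangles), each with a bar at the mean of the log2 values of 2 libraries. MFA2 of the partner lies above MFA2 of S. cerevisiae in 6 of 6 hybrid libraries, and GPA1 is high in S. paradoxus (99.4 and 102) and low in S. mikatae (3.65 and 5.61).

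The first comparison asked which of these genes differed between a species and S. cerevisiae when each was homozygous. In S. paradoxus, MFA2 and GPA1 were higher and STE4 lower than in S. cerevisiae. These were 3 of 5 genes tested, where 19.9% of all 4583 genes tested were called. STE4 passed the minimum mean of 10 through S. cerevisiae alone (51.3, against 1.48 in S. paradoxus) and so had to differ, and the count is given as a description. The log2 difference was 2.91 for GPA1 (SE 0.377, limma adjusted p = 0.0242), 1.46 for MFA2 (SE 0.327, limma adjusted p = 0.0490) and −4.40 for STE4 (SE 0.585, limma adjusted p = 0.0244). The median over all genes was −0.20 on the same scale. With all 6 S. cerevisiae homozygotes as the reference, the differences were 3.24 for GPA1, 2.26 for MFA2 and −3.11 for STE4, and each was called by limma (adjusted p = 0.00126, 0.0319 and 0.0185). MFA2 lost its call when columns were scaled by their totals (limma adjusted p = 0.0664) or when no minimum was set (limma adjusted p = 0.0508).

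In S. mikatae homozygotes, MFA2 was higher than in S. cerevisiae by 3.91 on the log2 scale (SE 0.517, limma adjusted p = 0.0241), from a mean of 10.2 ± 5.91 to 155 ± 10.4 (SD, n = 2 each). It was the gene called among 3 tested, where 19.7% of all genes were called. STE2 (−0.91, SE 0.632) and STE4 (0.81, SE 0.707) were not called (limma adjusted p = 0.346 and 0.444). In S. bayanus homozygotes 0 of 3 tested genes were called by limma, where 34.6% of all genes were, and none of the 3 had an unadjusted p under 0.05. The log2 differences were 1.03 for GPA1 (SE 0.458), 0.37 for MFA2 (SE 0.488) and 0.34 for STE2 (SE 0.689). MFA1, STE3 and STE4 were under the minimum mean and were not tested.

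The second comparison set the alleles of a hybrid side by side, where both sit in 1 nucleus with the same regulators. In the hybrid with S. mikatae the S. mikatae allele of MFA2 was higher by 3.43 on the log2 scale (SE 0.371, limma adjusted p = 0.0251), 1 of 3 genes tested, where 15.9% of all genes were called. With the library as a block the adjusted p was 0.0745 (limma) and no gene of the genome was called. STE4 was higher from the S. mikatae allele by 1.81 (SE 0.402) and was not called (limma adjusted p = 0.0572). GPA1, 1.51 ± 0.0185 from S. mikatae and 10.9 ± 0.826 from S. cerevisiae (SD, n = 2), was under the minimum.

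In the hybrid with S. bayanus, MFA1 and GPA1 were higher from the S. bayanus allele, 2 of 5 genes tested, where 35.5% of all genes were called. The difference was 4.67 for MFA1 (SE 0.456, limma adjusted p = 0.00934) and 1.99 for GPA1 (SE 0.441, limma adjusted p = 0.0390). With the library as a block MFA1 stayed past the threshold (limma adjusted p = 0.0347) and GPA1 did not (limma adjusted p = 0.0716). MFA1 passed the minimum through the S. bayanus allele alone, its S. cerevisiae mean being 1.99, so the count is given as a description. MFA2 differed by 2.20 (SE 1.35) and was not called (limma adjusted p = 0.271). Without the first hybrid library its difference was 0.75, and without the second it was 3.66 and was called (limma adjusted p = 0.0479).

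In the hybrid with S. paradoxus, 0 of 3 tested genes were called by limma, where 4.98% of all genes were, although 2 of the 3 had an unadjusted p under 0.05. MFA2 was higher from the S. paradoxus allele by 4.07 (SE 0.863, limma adjusted p = 0.0734) and GPA1 by 3.29 (SE 0.649, limma adjusted p = 0.0647). Both genes passed the minimum through the S. paradoxus allele, their S. cerevisiae means being 4.02 and 7.88. GPA1 was called when the alleles of a library shared 1 scaling factor (difference 3.48, limma adjusted p = 0.0421).

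**Figure D3:**
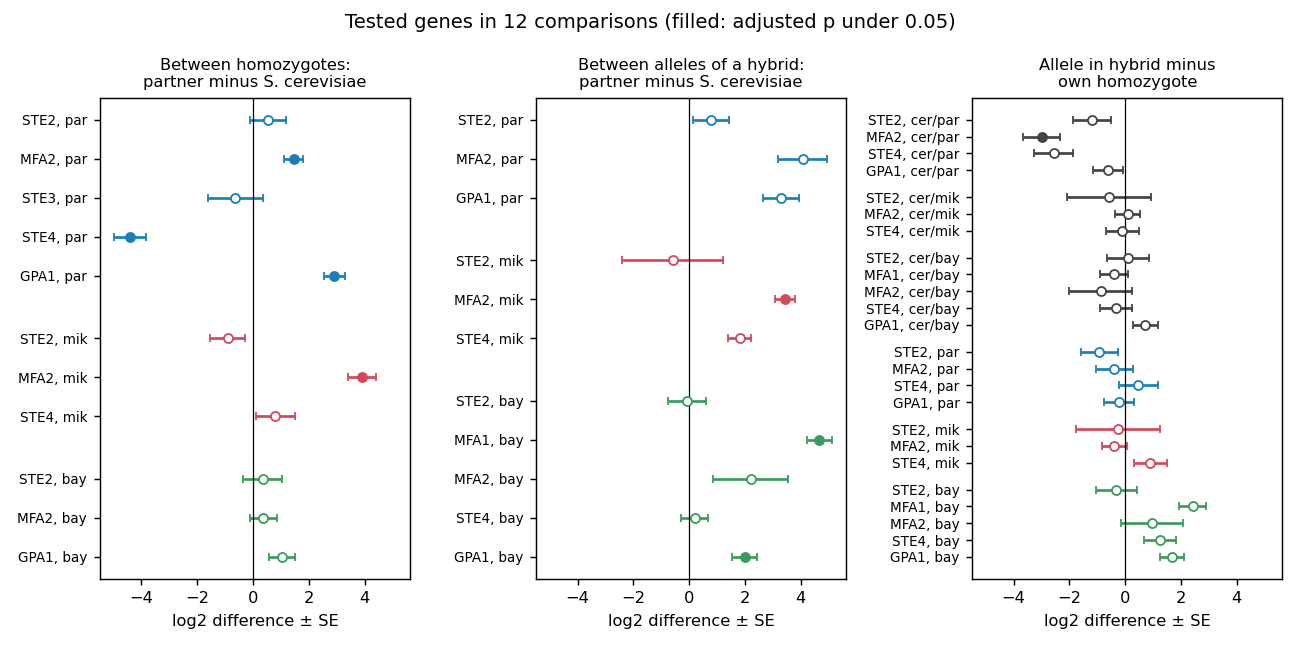
Log2 difference with its standard error (horizontal axis) for each gene tested in the 12 comparisons, with the gene and the partner species on the vertical axis (par, mik and bay for S. paradoxus, S. mikatae and S. bayanus, and cer for the S. cerevisiae allele). Filled points passed an adjusted p of 0.05, and the 8 filled points include MFA2 of S. mikatae between homozygotes (3.91) and between alleles (3.43).

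The third comparison asked whether an allele was expressed differently in the hybrid than in the homozygote of its species. The parents of the hybrids carry other strain names than the homozygotes, so strain or marker differences and the hybrid state cannot be told apart here. In the hybrid with S. paradoxus the S. cerevisiae allele of MFA2 was lower, by −3.00 on the log2 scale (SE 0.674, limma adjusted p = 0.0389), from 33.9 ± 0.310 in the homozygote to 4.02 ± 3.54 (SD, n = 2 each). It was the gene called among 4 tested, where 11.0% of all genes were called. STE4 differed by −2.57 (SE 0.697, limma adjusted p = 0.0633), STE2 by −1.19 (SE 0.674) and GPA1 by −0.61 (SE 0.539), and these were not called. STE4 passed the minimum through the S. cerevisiae homozygotes of this pair alone (mean 51.3, against 8.54 for the S. cerevisiae allele), and so had to be lower in the allele. The S. cerevisiae homozygotes of the other pairs had STE4 at 11.1 to 15.4, which the allele's values of 4.89 and 12.2 overlapped. For all 6 genes, both values of the S. cerevisiae allele lay below both values of the homozygote, as they did for 37.0% of all genes tested. Set against all 6 S. cerevisiae homozygotes, 5 of which had MFA2 at 14.3 or more, the allele's values of 6.53 and 1.52 overlapped the lowest homozygote, at 5.98.

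The other 5 comparisons of this kind called 0 members by limma. The S. cerevisiae allele had 0 of 3 called in the hybrid with S. mikatae (1.87% of all genes called) and 0 of 5 in the hybrid with S. bayanus (3.52%). The S. paradoxus allele had 0 of 4 (0.678%), the S. mikatae allele 0 of 3 (0.527%) and the S. bayanus allele 0 of 5 (4.29%). Of these 20 tests, 2 had an unadjusted p under 0.05, both for the S. bayanus allele. MFA1 was higher there in the hybrid by 2.41 (SE 0.498, limma adjusted p = 0.0551) and GPA1 by 1.68 (SE 0.437, limma adjusted p = 0.0987). MFA1 was called with a pseudocount of 5 (difference 2.12, limma adjusted p = 0.0309) or with no minimum (limma adjusted p = 0.0395).

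The difference between species in these ratios was computed for every tested member after the values had been seen, so it describes the pattern already given above. Of the 30 differences between species 10 passed limma's threshold, where 10.9% to 27.9% of all genes did in the 6 comparisons. The GPA1 ratio to S. cerevisiae was larger in S. paradoxus than in S. mikatae by 3.94 on the log2 scale between homozygotes (SE 0.579), of which the 2 species gave 4.20 and the S. cerevisiae libraries 0.26. GPA1 of the homozygotes in the S. mikatae pair was under the minimum by itself (means of 4.63 in S. mikatae and 10.3 in S. cerevisiae) and entered this fit through the other pairs. Between hybrid alleles the GPA1 difference was 5.54 (SE 0.780), and GPA1 of the S. mikatae hybrid, under the minimum by itself, entered this fit through the other hybrids. For STE4 the S. paradoxus ratio minus the S. mikatae ratio was −5.21 between homozygotes (SE 0.892). The 2 species themselves differed in STE4 by −3.18, and the S. cerevisiae libraries of the 2 pairs by 2.03. Between hybrid alleles the STE4 difference was −3.18 (SE 0.808), with STE4 of the S. paradoxus hybrid under the minimum by itself. For MFA2 the difference between the same ratios was −2.45 between homozygotes (SE 0.655), of which the species gave −0.70 and the S. cerevisiae libraries, which differed by 1.75, the rest. Between hybrid alleles the MFA2 difference was 0.63 (SE 1.51) with the opposite sign, and was not called (limma adjusted p = 0.819). No difference between a gene's homozygote ratio and its hybrid ratio passed the threshold in 12 tests with limma, where 0.110% to 1.84% of all genes did, and 3 had an unadjusted p under 0.05.

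The other genes of the mating pathway ranged widely. The remaining a-specific genes STE6, AGA2 and AFB1 had a median percentile of 3.52, the alpha-specific MF(ALPHA)2 and SAG1 10.1, and the other haploid-specific or pheromone-induced genes 11.6. Single values in these 3 lists reached percentiles of 68.3, 34.4 and 81.2, so not all such genes lay below the median gene in every column. The kinases, scaffolds and factors that also serve signalling outside mating had a median of 42.7, and the enzymes that mature the pheromones 56.1. The genes of repressors and silencing had 33.9, and IME1, IME2 and IME4 of diploid and meiosis entry 7.49. The lists overlapped, since median percentiles of single genes ran from 4.08 to 57.5 among the other haploid-specific or pheromone-induced genes and from 11.3 to 88.2 among those of signalling outside mating, and no difference between lists was tested. Of 55 such genes 46 had values. No gene of the mating-type loci had values here.

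**Figure D4:**
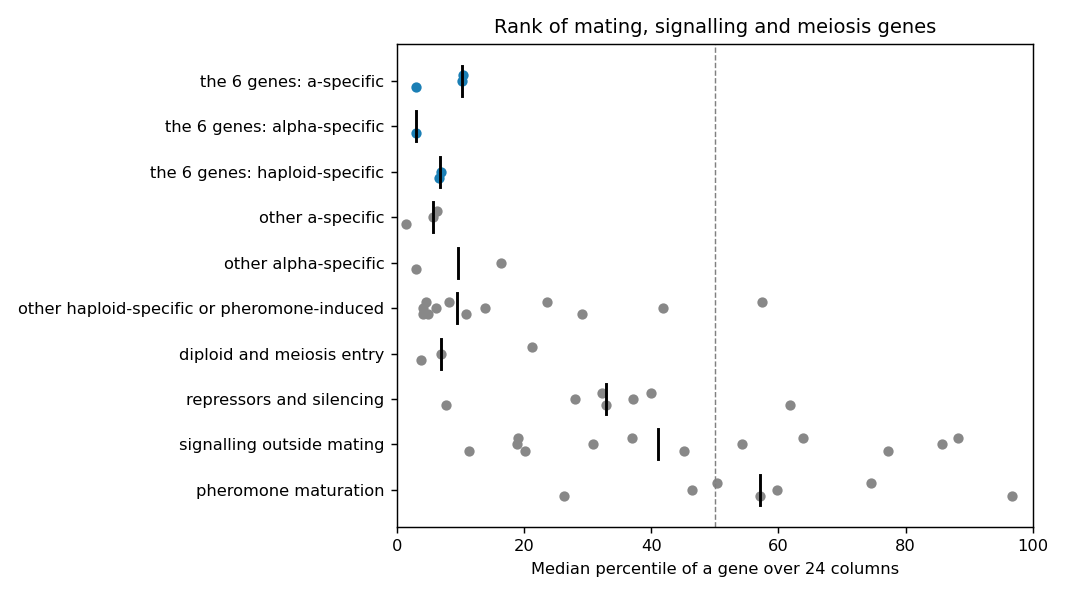
Median percentile over 24 columns (horizontal axis, 0 to 100) of each gene of the set (blue) and of the other mating, signalling and meiosis genes (grey), with a black bar at the median gene of each group. The 6 genes lie at or below 10.3, while the enzymes of pheromone maturation reach 96.7.

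Between homozygotes, 1 of 41 tested genes of these other lists was higher and 6 were lower in S. paradoxus than in S. cerevisiae (limma), with 0 and 4 of 40 in S. mikatae, and 9 and 8 of 43 in S. bayanus. Over all genes the shares called higher and lower were 8.38% and 11.5%, 8.25% and 11.5%, and 18.4% and 16.2% in these species. RME1, a haploid repressor of meiosis, was lower in each of the 3 species, with means of 3.69, 0.365 and 0.292 against 315, 362 and 81.1 for S. cerevisiae of the same pair (limma adjusted p = 0.0222, 0.0149 and 0.00997). RME1 passed the minimum through S. cerevisiae alone in each pair. IME1, the activator of meiotic entry, was also lower in S. paradoxus (1.08 against 159, limma adjusted p = 0.0219) and was listed at 0 in S. mikatae. STE6, which exports a-factor, was lower in S. paradoxus (1.53 against 31.9, limma adjusted p = 0.0390) and higher in S. bayanus (149 against 2.90, limma adjusted p = 0.00997). The S. cerevisiae mean of STE6 was thus 31.9 in one pair and 2.90 in the other for the same strain, and the S. paradoxus value lies near the lower of them. IME2, of the meiosis entry list, was lower in S. bayanus (2.40 against 201 with SD 160, n = 2, limma adjusted p = 0.0183). FUS2, of the haploid-specific or pheromone-induced list, was lower in S. mikatae (3.03 against 104, limma adjusted p = 0.0175). IME1, STE6, IME2 and FUS2 also passed the minimum through the higher group alone in these comparisons. STE6 was also higher from the S. bayanus allele of the hybrid, at 135 against 1.99 (difference 5.54, limma adjusted p = 0.00748). It passed the minimum through that allele alone.

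Between the alleles of a hybrid, the other lists had 1 gene higher and 0 lower of 41 tested with S. paradoxus, 3 and 1 of 38 with S. mikatae, and 11 and 5 of 40 with S. bayanus. The shares over all genes were 2.42% and 2.56%, 7.82% and 8.07%, and 18.3% and 17.2%. The 1 gene with S. paradoxus was CDC24, of signalling outside mating (2908 against 394, limma adjusted p = 0.0480). SST2, which switches off Gpa1, was higher from the S. mikatae allele by 1.69 (limma adjusted p = 0.0391). NEJ1, of the haploid-specific or pheromone-induced list, was lower from it (30.1 against 150, limma adjusted p = 0.0392). IME2 was lower from the S. bayanus allele (1.43 against 109 with SD 107, limma adjusted p = 0.0287). IME2 passed the minimum through the S. cerevisiae allele alone. DIG2, a repressor of the pheromone-response factor Ste12, was higher from the S. mikatae allele by 3.55 (limma adjusted p = 0.0497) and from the S. bayanus allele by 4.84 (limma adjusted p = 0.0250). It passed the minimum through the partner allele alone in both hybrids, its S. cerevisiae means being 8.53 and 8.24. The S. bayanus mean of DIG2 was 315 with an SD of 274 (n = 2). Among alleles set against their own homozygote, the S. cerevisiae allele beside S. paradoxus had 1 higher and 3 lower of 42 tested, with 4.29% and 6.69% over all genes. The higher one was STE24, a protease of a-factor maturation (13204 against 2004, limma adjusted p = 0.0165). The lower ones were AXL1, another such protease (9.41 against 46.2, limma adjusted p = 0.0293), SIR1, which helps to silence the spare mating-type loci (4.73 against 67.4, limma adjusted p = 0.0203), and STE13, a protease of alpha-factor maturation, named after its value was seen (222 against 955, limma adjusted p = 0.0182). Of the remaining comparisons of this kind, AMN1, which delays cell separation, was lower for the S. cerevisiae allele beside S. bayanus (249 against 638, limma adjusted p = 0.0343) and SIR1 for the S. bayanus allele (2.11 against 42.0, limma adjusted p = 0.0150).

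Over the 24 columns the genes whose log2 values followed MFA2 most closely were AAT2 (Pearson r = 0.84), IRC19 (0.84) and VPS35 (0.84), among 4601 genes. The columns share strains, hybrid libraries and mapping, and r is a description over them. Among the mating genes r with MFA2 was −0.02 for STE2, 0.28 for MFA1, 0.03 for STE4 and 0.13 for GPA1.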

How the data were processed

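The 18 libraries held 3′-end RNA-seq reads, which per the study's methods were base-called with CASAVA 1.7, stripped of poly-T, mapped with Bowtie 0.12.7 to both genomes of a pair and kept where unique. The authors weighted reads for GC content and summed weights from upstream to downstream of each open reading frame on the sense strand. The deposited values are therefore scores, whole-number sums of GC-weighted reads without scaling between libraries, so no count model was used. Each column was divided by its upper quartile relative to the geometric mean over 24 columns. Genes with a mean scaled value of at least 10 in a fit were tested on log2(scaled value + 1), so differences of low genes are understated, with limma 3.58.1 (R 4.3.3; intensity trend, Benjamini-Hochberg adjustment over all genes tested, threshold 0.05), after a check on simulated data. A species was set against the 2 S. cerevisiae libraries mapped to the same pair; that pair came from the deposited names, since labels do not give it. Allele fits used 4 columns, fits of an allele against its homozygote 8. Where 2 libraries make a group, p-values measure the spread of cultures of 1 strain.

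Members and lists were chosen with earlier results of these data known. All 6 members were named, and of other lists at most 3 called genes per comparison with the largest difference. Alternatives were other scaling, pseudocount 5, no minimum, all 6 S. cerevisiae homozygotes, a block and leaving out each library. Both alleles of a hybrid library come from the same culture, so the library pairs them; their replicate differences correlated at 0.0587, 0.0152 and 0.0298 for the hybrids with S. paradoxus, S. mikatae and S. bayanus. Operator patterns and coordinates refer to RefSeq's R64 assembly, which need not be the authors' build. Python 3.11.15, NumPy 2.4.6, pandas 2.3.3 and Matplotlib 3.10.9 were used.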

Additional observations from a re-analysis of the deposited data

Results flagged for a closer look

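Of the 12 sets of 6 S. cerevisiae values examined for a value far from the rest, 1 held such a value, and about 1 set in 20 does so by chance. MFA1 of the S. cerevisiae allele in the second hybrid library with S. mikatae stood at 13.1, while the other 5 alleles lay between 0 and 2.56.

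Ratios to S. cerevisiae that differed between species in limma's test of the difference, given as log2 of the first species minus the second, were as follows. Between homozygotes, S. paradoxus minus S. mikatae gave −2.45 for MFA2, −5.21 for STE4 and 3.94 for GPA1. S. paradoxus minus S. bayanus gave −3.03 for STE4 (limma adjusted p = 0.0347) and 1.88 for GPA1 (limma adjusted p = 0.0410). S. mikatae minus S. bayanus gave 3.54 for MFA2 (limma adjusted p = 0.00758) and −2.06 for GPA1 (limma adjusted p = 0.0371). Between hybrid alleles, S. paradoxus minus S. mikatae gave −3.18 for STE4 and 5.54 for GPA1, and S. mikatae minus S. bayanus gave −4.23 for GPA1 (limma adjusted p = 0.00790). Some of these ratios were under the minimum in their own pair and entered the fit through the others. They were GPA1 of S. mikatae in homozygotes and hybrid, STE4 of S. bayanus homozygotes and STE4 of the S. paradoxus hybrid. In all, 10 of 42 differences tested passed the threshold, all between species, where 10.9% to 27.9% of all genes passed. Between S. paradoxus and S. mikatae homozygotes, MFA2 rests mostly and STE4 in part on the S. cerevisiae references, which differed by 1.75 and 2.03 on the log2 scale. STE4 of S. paradoxus minus S. bayanus homozygotes also rests mostly on them, since the species gave −1.17 and the references differed by 1.85. For MFA2 of S. mikatae minus S. bayanus homozygotes the species gave 2.45 and the references differed by −1.10. The species were not mapped to 1 genome, so a species and its pair of genomes cannot be told apart.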

How the results depend on the processing

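No called difference changed sign under any alternative run. Among 48 values of the 8 called differences under settings other than leaving out a library, 39 kept their call and 9 lost it. With the replicate block, the number of members called went from 3 to 0 for S. paradoxus homozygotes, from 1 to 0 for S. mikatae homozygotes, from 1 to 0 for the S. mikatae hybrid, from 2 to 1 for the S. bayanus hybrid and from 1 to 0 for the S. cerevisiae allele beside S. paradoxus. Replicate numbers of homozygotes mark no shared source, and correlations of replicate differences between groups ran from −0.0501 to 0.0865. The block also lowered the calls over all genes, from 911 to 334, 900 to 0 and 1582 to 796 between homozygotes, and from 224 and 719 to 0 and 0 between S. paradoxus and S. mikatae alleles. Against homozygotes it gave 51 of 85 (S. cerevisiae allele beside S. mikatae), 69 of 161 (beside S. bayanus), 19 of 31 (S. paradoxus allele) and 108 of 196 (S. bayanus allele). All 6 S. cerevisiae homozygotes as reference gave 2 members for S. mikatae, and 1477 genes against 900. No minimum gave 1 member for S. bayanus homozygotes, 2 for the S. mikatae hybrid, 2 for the S. cerevisiae allele beside S. paradoxus and 1 for the S. bayanus allele. Pseudocount 5 gave 2 and 1 for the last pair. One scaling factor per library gave 1 member called between S. paradoxus alleles and 2 between S. mikatae alleles.

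Leaving out 1 library left 0 to 0 members called for S. paradoxus homozygotes, S. mikatae homozygotes, the S. mikatae hybrid and the S. cerevisiae allele beside S. paradoxus, and 1 to 2 for the S. bayanus hybrid. These fits called 0 genes of the genome for the first 3, so they say nothing of stability there, and 20 to 71 (of 502) for the fourth. Over all genes they called 0 to 745 for S. bayanus homozygotes, 538 to 539 for the S. bayanus hybrid, 0 to 0 for the S. paradoxus hybrid, and 3 to 88 for the other alleles against homozygotes. The called differences ranged from 2.81 to 3.01 (GPA1, S. paradoxus homozygotes), 1.41 to 1.51 (MFA2), −4.47 to −4.33 (STE4), 3.34 to 4.48 (MFA2, S. mikatae), 3.14 to 3.73 (MFA2, S. mikatae hybrid), 4.16 to 5.18 (MFA1, S. bayanus hybrid), 1.57 to 2.41 (GPA1) and −3.79 to −2.21 (MFA2, S. cerevisiae allele beside S. paradoxus). Where a group kept 1 library, it was assumed to vary like the others. The cause of the changed calls was not tested. Values of 0 to 5 in allele columns limit what STE3 and MFA1 can show.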
